A study of Homo sapiens with 12 samples.

Results

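Expression after depletion of WDR5 was compared with expression after a non-targeting control across 18417 genes. The genes were those with a transcript cluster annotated with 1 gene, taken from 33297 transcript clusters, and the brightest cluster stood for a gene with several. The comparison rests on 2 siWDR5 arrays and 2 siNTC arrays of the 12 arrays of the series. All 12 arrays carry RNA of NCCIT cells, a human embryonal carcinoma line from a germ cell tumor, and the other conditions, with 2 arrays each, were siEED, siRNF2, siEED+RNF2 and siSETD2. EED belongs to Polycomb repressive complex 2 and RNF2 to Polycomb repressive complex 1, and SETD2 methylates H3K36. For siWDR5 and the EED and RNF2 knockdowns the study used pools of 4 siRNAs per gene, transfected 24 and 48 h after seeding, with the non-targeting siRNA in parallel and harvest at 96 h. The methods do not mention siSETD2. Each siRNA pool is a single reagent, transfection was transient, and 1 cell line was used. The siNTC arrays carry "re-analysis" in their label. Nothing in the sources used here says whether the replicates were separate cultures, so p-values here reflect only how far the 2 arrays of a condition lie apart, which may be technical.

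WDR5 is a WD40-repeat protein that contacts the N-terminal tail of histone H3. It forms the core of every MLL/COMPASS methyltransferase together with RBBP5, ASH2L and DPY30, and these complexes place H3K4 methylation at active and poised promoters. WDR5 also serves the NSL and ATAC acetyltransferase complexes. In pluripotent cells, promoters of many developmental genes carry H3K4me3 and the Polycomb mark H3K27me3 together.

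Values are log2 intensities, so a difference of 1 is a doubling of signal. A gene was called when limma gave a Benjamini-Hochberg adjusted p under 0.05 over all 18417 genes and the fold was at least 1.5, which is 0.585 on the log2 scale. All adjusted p-values below are from limma fitted to the 12 arrays together. The deposited values are normalized, and 2 arrays per condition limit the precision. Replicate arrays correlated at 0.996 to 0.997. The embryonal carcinoma markers SOX2 (12.84 and 12.82 in siWDR5), SALL4, L1TD1, LIN28A and DNMT3B were all bright on every array, and POU5F1, NANOG and TDGF1 were not analysed here. Of 14 fibroblast and blood cell markers, 0 were called with limma, 0 were higher and 2 were lower at an unadjusted p under 0.05, and the levels of the list ranged from 4.07 to 12.1 in siWDR5 (median 4.62) and from 4.05 to 11.9 in siNTC (median 4.58). In RNA of a whole culture, fewer cells of a type and less RNA per cell cannot be told apart.

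In siWDR5-treated cells 515 genes were higher than in siNTC (2.8% of genes tested) and 593 were lower (3.22%). A change of at least 2-fold was reached by 91 of the higher genes and 82 of the lower genes. Against the mean of the 4 other knockdowns, which does not use the siNTC arrays, 156 genes were higher (0.847%) and 370 were lower (2.01%). Against siNTC and each of the 4 other knockdowns separately, 15 genes were higher (0.0814%) and 31 were lower (0.168%) in every comparison. These comparisons share the siWDR5 arrays. At an unadjusted p under 0.05 in limma, 3523 of the 18417 genes were higher and 4465 lower than siNTC. Against the mean of the other knockdowns 3221 were higher and 3745 lower at that level. Counts of list members given here at either threshold are to be read beside these over all genes. When each array was centred on its median over the genes, the higher share of the calls against the mean of the other knockdowns moved from 29.7% to 52.1%, and of the calls in every comparison from 32.6% to 57.9%, and under quantile normalization they were 40.1% and 47.4%, so the balance of directions there depends on the scaling.

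Neighboring genes shifted together between siWDR5 and siNTC. Among the 9200 brighter genes with a chromosome, the median log2 difference was -0.17 over the 319 genes of chromosome 15, and 46 of its 576 genes were called lower (7.99%) against 8 called higher. The genes from CTSC to GLB1L3, the last of 4 equal groups of chromosome 11 in map order, had a median of -0.31, and those from TGFBRAP1 to ING5 on chromosome 2 medians of -0.17 in both groups. The genes from FAM20C to STARD3NL on chromosome 7 had a median of 0.27. The 4 pairings of single siWDR5 and siNTC arrays gave 0.248 to 0.295 for that chromosome 7 group and -0.26 to -0.334 for the chromosome 11 group, the same sign in all 4. The same groups had medians of 0.03 and -0.01 for siWDR5 minus siEED, and -0.03 and -0.01 for siWDR5 minus siRNF2. Of 92 such groups over the genome, 4 lay beyond 0.2 in either direction for siWDR5 minus siNTC, 0 for siWDR5 minus siEED, 0 for siWDR5 minus siRNF2, 4 for siWDR5 minus siEED+RNF2 and 1 for siWDR5 minus siSETD2. The 4 against siEED+RNF2 were other groups, on chromosomes 4, 13 and 14, with 0.34 the highest, from RCBTB2 to GPR180. The chromosome 7 group was -0.14 for siWDR5 minus siSETD2. Relative to siNTC, all 5 knockdowns lay on the same side in the chromosome 7 group, with siEED at 0.23, siRNF2 at 0.26, siEED+RNF2 at 0.26 and siSETD2 at 0.39, and in the chromosome 11 group, at -0.26, -0.32, -0.30 and -0.26 in that order. These groups thus separate siNTC from the other 5 conditions, and whether a siNTC difference there goes with an siRNA or with the siNTC arrays cannot be told apart. Chromosome 15 also differed from siSETD2, with a median of 0.14. Against the mean of the other knockdowns, 14 of the 576 genes of chromosome 15 were called lower. As an alternative chosen after seeing the data, each array was centred within these chromosome groups on its median intensity over the brighter genes. This offset is a difference of medians and not the median difference given above, so it need not remove the regional difference. A call that ended or appeared under this centring is therefore not shown to be regional. After it 560 genes were higher and 597 lower, and 426 of the 515 and 425 of the 593 remained called. The calls on chromosome 15 then came to 12 higher and 24 lower, those on chromosome 2 to 46 and 23 from 23 and 60, and those on chromosome 11 to 46 and 24 from 24 and 56.

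**Figure D1:**
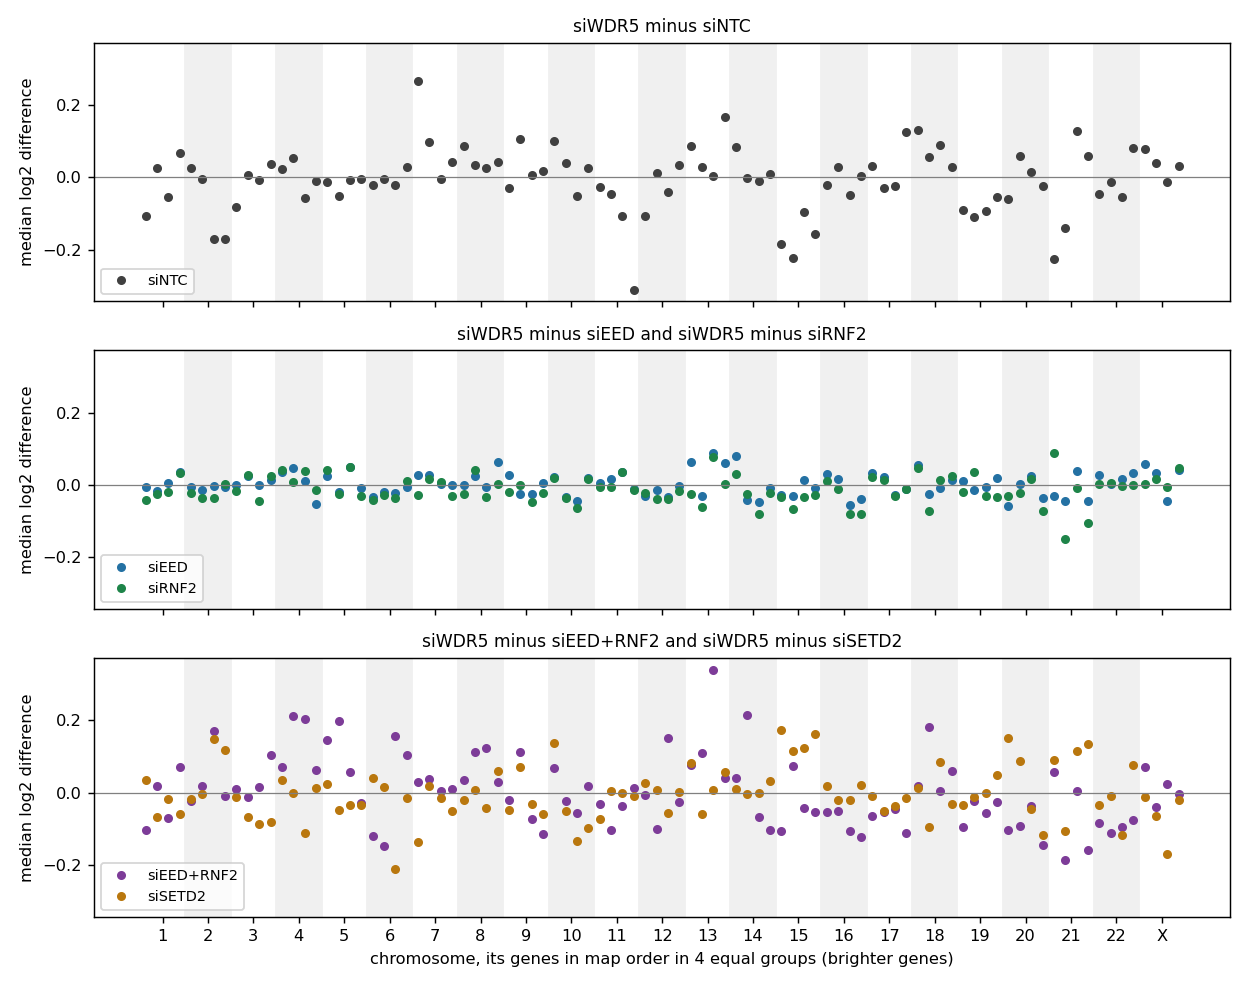
Median log2 difference over the 9200 brighter genes in 4 equal groups along each chromosome, for siWDR5 minus siNTC (top), minus siEED and siRNF2 (middle) and minus siEED+RNF2 and siSETD2 (bottom). The chromosome 11 group is at -0.31 and the chromosome 7 group at 0.27 in the top panel and both lie between -0.03 and 0.03 in the middle panel, while the bottom panel holds 4 other groups beyond 0.2 against siEED+RNF2 and 1 at -0.21 against siSETD2.

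The targeted transcript was lower on both siWDR5 arrays than on any other array. WDR5 was 8.39 and 8.24 in siWDR5 and 9.48 and 9.58 in siNTC, and between 9.82 and 10.09 in the other knockdowns. The log2 difference from siNTC was -1.21 (SE 0.07, adjusted p = 4.3e-07), which left 43.1% of the siNTC signal and 32.8% of the mean signal of the other knockdowns. The siWDR5 arrays did not overlap with those of any other condition.

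**Figure D2:**
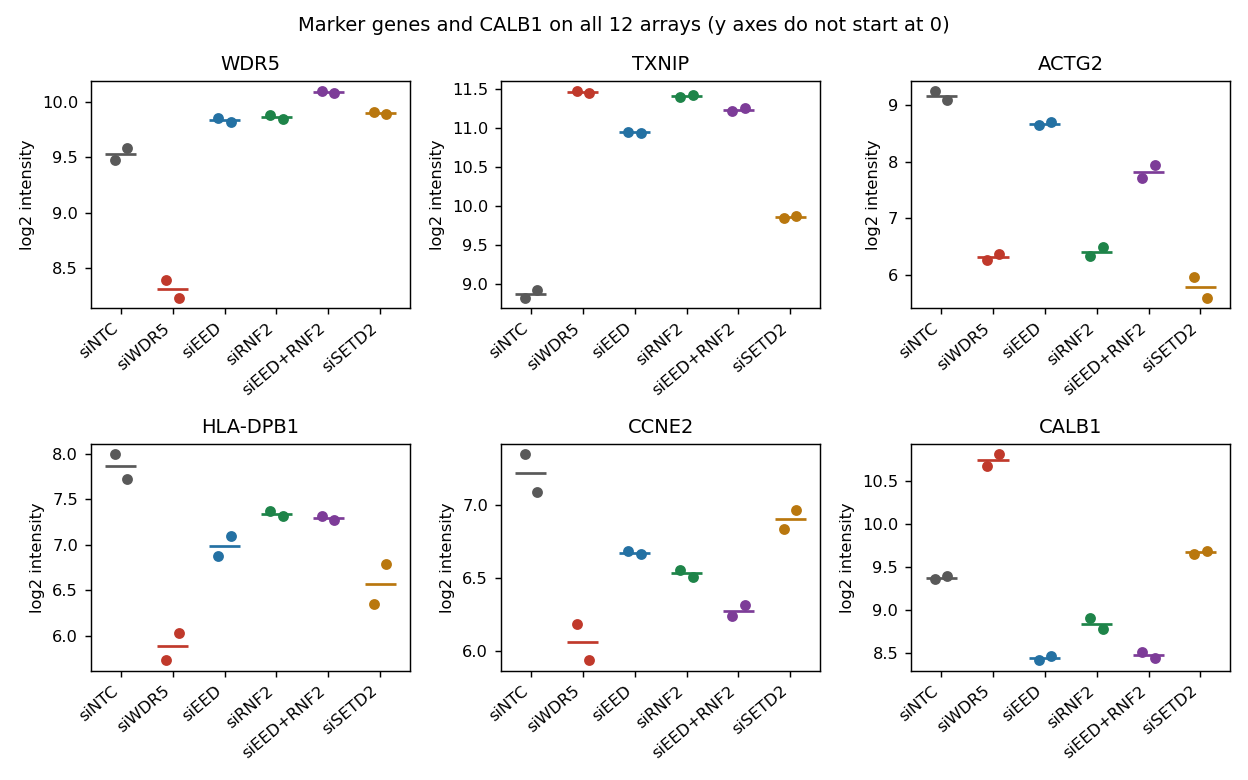
Log2 intensity of 6 genes on each of the 12 arrays, with a bar at each condition's mean. WDR5 is lowest and CALB1 highest in siWDR5, whereas ACTG2 differs by -0.09 and TXNIP by 0.04 between siWDR5 and siRNF2.

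The other MLL/COMPASS genes mostly did not reach the threshold. Of 22 measured subunit genes, 1 was called higher and 2 lower than siNTC, with a median log2 difference of -0.04 beside -0.03 over all genes. The core partners RBBP5 (-0.16), ASH2L (0.25) and DPY30 (0.03) and the methyltransferases KMT2A (-0.21), KMT2B (-0.02), SETD1A (-0.06) and SETD1B (0.03) were not called. HCFC2, a host cell factor protein of MLL complexes, fell to 6.51 and 6.34 from 7.19 and 7.15 in siNTC, a difference of -0.74 (SE 0.11, adjusted p = 0.00025). BOD1, named for its role in chromosome biorientation, rose by 0.63 (SE 0.07, adjusted p = 5.4e-05) on the log2 scale against siNTC and differed from the mean of the other knockdowns by 0.03. Against that mean WDR5 was the only subunit called.

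Of 18 NSL and ATAC subunits, 0 were called higher with limma (5 at an unadjusted p under 0.05) and 2 lower. TADA3, an adaptor shared by ATAC and SAGA, was 8.24 and 8.07 in siWDR5 and 8.81 and 8.75 in siNTC. It was lower than siNTC, at -0.63 (SE 0.09, adjusted p = 0.00024) and lower than the mean of the other knockdowns, at -0.75 (SE 0.07, adjusted p = 1.5e-05), but its difference from siNTC was -0.52 and not called after centring within chromosome groups and -0.54 without siWDR5 replicate 2. KAT2A, the GCN5 acetyltransferase, was 7.94 and 7.93 in siWDR5 and 8.75 and 8.72 in siNTC, a difference of -0.81, and -0.28 from the mean of the other knockdowns. None of the 5 H3K4 demethylase genes was called with limma, although 4 were higher and 1 was lower at an unadjusted p under 0.05, with KDM1A at 0.34 and KDM5B at 0.27, and 0.24 and 0.13 against the mean of the other knockdowns. The 17 genes of DNA methylation and demethylation gave 0 calls against siNTC (5 higher and 5 lower at an unadjusted p under 0.05), with DNMT1 at 0.15, DNMT3A at -0.01, DNMT3B at -0.34 and TET1 at -0.14. DNMT3L, the cofactor of the de novo methyltransferases, was 6.89 and 6.88 in siWDR5 and 6.46 and 6.48 in siNTC, and it was lower than the mean of the other knockdowns, at -1.24 (SE 0.06, adjusted p = 1.6e-07).

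Pluripotency factors moved in both directions. Of 24 measured genes, 5 were higher than siNTC and 4 lower. NR5A2, a nuclear receptor that can act upstream of POU5F1, was 12.04 and 11.998 in siWDR5 and 11.28 and 11.21 in siNTC, a rise of 0.78 (SE 0.06, adjusted p = 6e-06). It was also higher than the mean of the other knockdowns, by 0.86 (SE 0.05, adjusted p = 8.7e-07), as was GBX2, a homeobox gene of the epiblast, which differed by 0.67 from siNTC and 0.63 from that mean. By condition NR5A2 differed by 1.05 against siEED, 0.96 against siRNF2, 1.18 against siEED+RNF2 and 0.24, not called, against siSETD2. DPPA3, an oocyte and germ cell protein, was 12.78 and 12.86 in siWDR5 against 11.46 and 11.35 in siNTC (1.41), but differed by -0.09 from siEED and -0.14 from siRNF2. LIN28A, the RNA-binding inhibitor of let-7 processing, was 11.62 and 11.57 against 12.33 and 12.22, a difference of -0.68. PODXL, a cell surface sialomucin, was lower than siNTC, at -0.70, but -0.55 and not called after centring within chromosome groups. From the mean of the other knockdowns PODXL differed by -0.10 and was not called. SOX2 (0.06), SALL4 (-0.20) and PRDM14 (0.21) were not called.

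A group of the genes that rose belongs to amino acid supply and the stress response controlled by ATF4. ATF4 is a transcription factor whose translation increases when eIF2alpha is phosphorylated, and it binds C/EBP-ATF response elements. Of 57 measured genes on 4 lists, 30 were called higher than siNTC and 0 lower with limma (2 lower at an unadjusted p under 0.05), and their median log2 difference was 0.60. By role, 9 of 12 amino acid synthesis and one-carbon enzymes, 5 of 10 amino acid transporters, 3 of 17 aminoacyl-tRNA synthetases and 13 of 18 stress regulators were higher.

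Among the enzymes, PCK2, the mitochondrial phosphoenolpyruvate carboxykinase, was 8.76 and 8.69 in siWDR5 and 6.14 and 6.24 in siNTC, a difference of 2.54 (SE 0.06, adjusted p = 9.2e-10). ALDH1L2, a mitochondrial folate enzyme, was 9.37 and 9.33 against 7.39 and 7.61, and PSPH, the last enzyme of serine synthesis, was 10.49 on both arrays against 9.24 and 9.18. MTHFD2, of mitochondrial one-carbon metabolism, rose by 1.21. In all 4 genes both siWDR5 arrays lay above both siNTC arrays. Among the transporters, SLC7A5, which carries large neutral amino acids, was 10.903 and 10.76 against 9.23 and 9.13, and SLC1A4, a neutral amino acid exchanger, was 7.81 and 7.67 against 6.19 and 6.02. The cationic amino acid transporter SLC7A1 rose by 0.99 and the cystine transporter SLC7A11 by 0.96. The tRNA synthetases that rose were CARS1 (0.91), GARS1 (0.91) and AARS1 (0.79). GARS1 is on chromosome 7 and its difference was 0.52 and not called after centring within chromosome groups.

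Among the stress regulators, INHBE, an inhibin beta subunit, was 8.09 and 7.75 in siWDR5 against 5.497 and 5.397 in siNTC, and CHAC1, a glutathione-degrading cyclotransferase, was 10.43 and 10.32 against 8.04 and 8.05. VLDLR, a lipoprotein receptor, rose by 1.76 and STC2, a secreted glycoprotein, by 1.47. The transcription factors DDIT3 (1.27) and ATF3 (1.28) and the pseudokinase TRIB3 (1.33) rose as well. ATF4 itself differed by 0.38 and was not called.

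Of the 30 genes, which were chosen for being higher than siNTC, 0 were called higher than in siEED, siRNF2 or siEED+RNF2 with limma (1 in each of the 3 comparisons at an unadjusted p under 0.05), and 6, 12 and 9 were called lower. Against siSETD2, 25 of the 30 were called higher. PCK2 differed by -0.55 against siEED, -1.14 against siRNF2, -0.96 against siEED+RNF2 and 2.82 against siSETD2. GDF15, a secreted stress cytokine, was 6.598 and 6.67 in siWDR5 and 5.56 and 5.53 in siNTC, and was lower than the mean of the other knockdowns, at -1.54 (SE 0.07, adjusted p = 1.1e-07). For GDF15 that mean combines opposite differences, -1.51 against siEED, -3.02 against siRNF2, -2.16 against siEED+RNF2 and 0.52 against siSETD2. NUPR1, a chromatin-associated stress protein, was lower than the mean of the other knockdowns, at -0.91. VLDLR was higher than that mean by 0.80 (SE 0.07, adjusted p = 6.3e-06), with 2.61 against siSETD2 and 0.13 to 0.25 against the 3 Polycomb knockdowns. For PCK2, INHBE and SLC1A4 the siWDR5 arrays lay above siSETD2 and below the 3 Polycomb knockdowns, and for VLDLR they overlapped with siEED+RNF2.

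**Figure D3:**
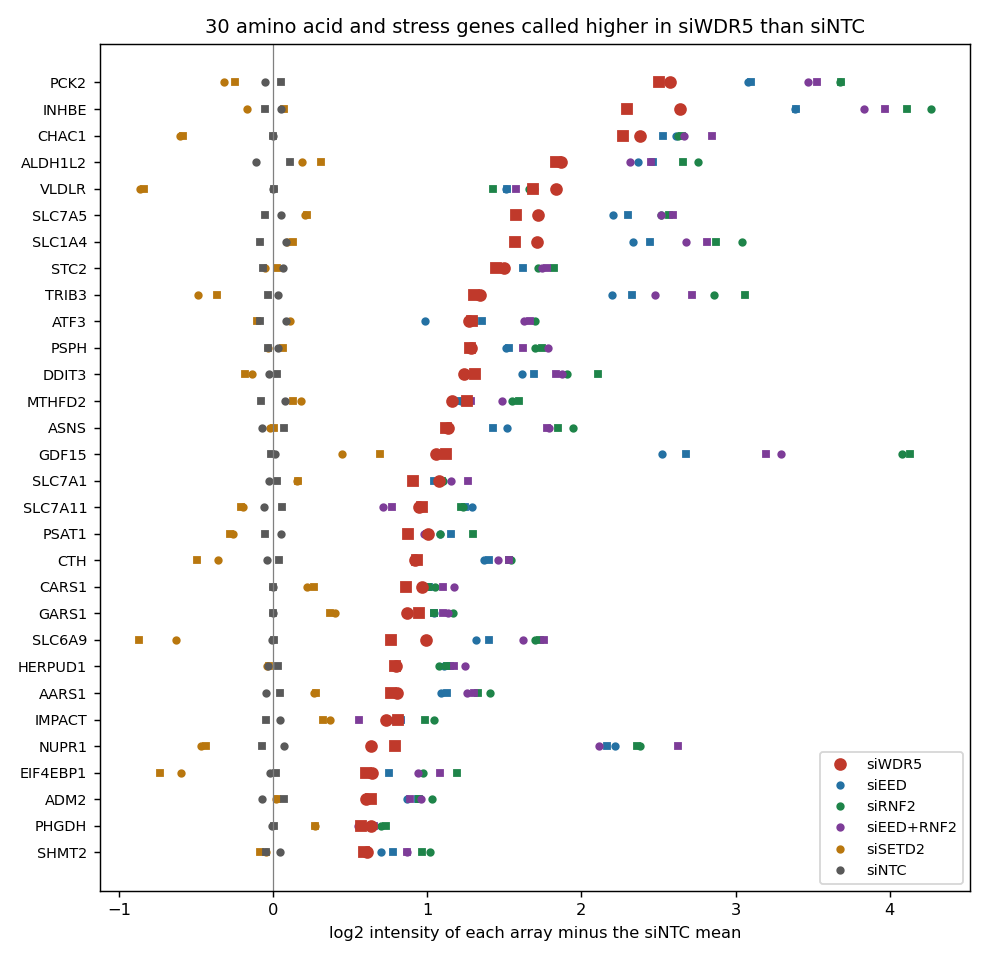
Log2 intensity of each array minus the siNTC mean for the 30 amino acid and stress genes called higher in siWDR5 than in siNTC (circles replicate 1, squares replicate 2). The siWDR5 points lie to the right of the siNTC points for every gene shown, as the choice of genes fixes, and to the left of the siEED, siRNF2 and siEED+RNF2 points for PCK2, INHBE, SLC7A5, SLC1A4, TRIB3, GDF15 and NUPR1.

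The core of the C/EBP-ATF response element, TGATGNAA on either strand, was looked for in RefSeq promoters (GRCh38.p14, 250 bases before to 50 bases after the start), which were found by symbol for 45 of the 57 genes. It was present in 7 of the 23 promoters of genes called higher (30.4%), in 7 of the 22 of genes not called (31.8%), in 361 of 14239 promoters of genes tested (2.54%) and in 1003 of 27305 promoters in the reference (3.67%). The 7 matches in called genes are shown so that their flanks can be compared, although most promoters of the group do not hold the motif, with 10 bases on each side, in the direction of the gene and with the match in capitals.
CHAC1 (chr15:40953252-40953279, plus strand): tcccctgccgTTGCATCActcctgccag
ATF3 (chr1:212565206-212565233, plus strand): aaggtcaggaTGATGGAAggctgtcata
ASNS (chr7:97872459-97872486, minus strand): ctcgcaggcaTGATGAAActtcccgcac
SLC7A1 (chr13:29595664-29595691, minus strand): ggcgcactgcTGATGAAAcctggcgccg
CARS1 (chr11:3057408-3057435, minus strand): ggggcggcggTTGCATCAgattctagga
AARS1 (chr16:70289676-70289703, minus strand): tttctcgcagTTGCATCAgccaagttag
HERPUD1 (chr16:56931956-56931983, plus strand): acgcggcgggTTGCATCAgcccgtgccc
The match reads TTGCATCA in CHAC1, CARS1, AARS1 and HERPUD1, which is TGATGCAA on the opposite strand. ASNS, the asparagine synthetase, was 10.81 and 10.796 in siWDR5 and 9.61 and 9.74 in siNTC, and HERPUD1, of ER-associated degradation, was 9.703 and 9.698 against 8.87 and 8.94. The shares in called and uncalled genes of these lists, 30.4% and 31.8%, were close. A match describes letters and not binding.

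TXNIP had the highest log2 difference from siNTC of the 18417 genes. TXNIP is an alpha-arrestin that binds thioredoxin and limits glucose uptake, and its promoter is a target of the glucose-sensing factor MondoA. It was 11.47 and 11.44 in siWDR5 and 8.83 and 8.93 in siNTC, a difference of 2.58 (SE 0.06, adjusted p = 7.2e-10). It differed by 0.51 against siEED, 0.04 against siRNF2, 0.22 against siEED+RNF2 and 1.595 against siSETD2, and was higher than the mean of the other knockdowns by 0.59 (SE 0.05, adjusted p = 4.8e-06). ARRDC4, another alpha-arrestin under MondoA, rose by 0.65 (SE 0.08, adjusted p = 0.00012), or 0.56 and not called without siWDR5 replicate 2, and the other 6 measured genes of the list were not called. The E-box CACGTG was found in 2 of the 8 promoters of this list (25%) and in 8.88% of the promoters of genes tested. Over the other lists the share ran from 0% to 66.7%, the highest in the BEX, TCEAL, ARMCX and GPRASP family. The ARRDC4 match is shown with its flanks.
ARRDC4 (chr15:97960483-97960508, plus strand): acggcctgtgCACGTGcacgccggag
No CACGTG was found in the TXNIP window. Of 13 mTORC1 inhibitors, 2 rose and 0 fell with limma (4 lower at an unadjusted p under 0.05). DDIT4 was 9.73 and 9.64 against 7.2 and 7.05 and SESN2, which senses leucine, was 9.6 and 9.49 against 7.49 and 7.36. Both lay below siEED, siRNF2 and siEED+RNF2. The SESN2 differences, -0.20 to -0.31, were not called, and DDIT4 was called against siRNF2 (-0.79) and siEED+RNF2 (-0.76) but not siEED (-0.54). FOXR2, a forkhead factor, SPINK1, a secreted trypsin inhibitor, and ABCA1, the cholesterol efflux transporter, were further genes among the 10 highest differences from siNTC, with 1.92, 1.91 and 1.83. SPINK1 and ABCA1 differed from the mean of the other knockdowns by 0.04 and 0.01.

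HLA-DPB1 led the 3 MHC class II genes that fell. Class II molecules present peptides to CD4+ T cells, and the alpha and beta chains of HLA-DP are encoded side by side. Of 13 measured genes of the pathway, 3 were lower than siNTC and 0 higher with limma (1 higher at an unadjusted p under 0.05), with a median log2 difference of -0.25. After centring within chromosome groups 6 were lower, with a median of -0.55. The 4 groups of chromosome 6, where the 3 called genes lie, had median differences from siNTC of -0.0215 to 0.0275. The lower list median therefore does not show that a regional difference was removed. HLA-DPB1 was 5.73 and 6.03 in siWDR5 and 7.997 and 7.73 in siNTC, a difference of -1.98 (SE 0.14, adjusted p = 2.5e-06), and was lower than every other condition (-1.11 against siEED, -1.46 against siRNF2, -1.41 against siEED+RNF2 and -0.69 against siSETD2). HLA-DPA1, its partner chain, was 5.03 and 5.37 against 5.98 and 5.93, and was also lower than the mean of the other knockdowns, at -0.63 (SE 0.09, adjusted p = 0.00032). HLA-DMA, the peptide exchange factor, was 6.79 and 6.64 against 7.46 and 7.31, and differed from siSETD2 by 0.35. CIITA, the class II transactivator, differed by 0.06 and the RFX subunit RFX5 by -0.08, and neither was called. The Y box CTGATTGG, a conserved element of class II promoters, was found in 4 of 12 promoters of the list (33.3%) and in 5.19% of the promoters of genes tested. Over the other lists the share ran from 0% to 46.2%, the highest in the histone genes, so it is not particular to class II genes. The matches in class II chain genes are shown for comparison of their flanks.
HLA-DMA (chr6:32953162-32953189, minus strand): ctacgcttctCTGATTGGtttagacaaa
HLA-DQB1 (chr6:32666731-32666758, minus strand): agctccagtgCTGATTGGttcttttccg
HLA-DRB5 (chr6:32530363-32530390, minus strand): aactcagatgCTGATTGGttctccaaca
Of these only HLA-DMA was called, and the exact letters were not found in the windows of HLA-DPB1 or HLA-DPA1. The fourth match was in RFX5. Of 13 class I genes, PSME2, a proteasome activator subunit, was called higher (1.13, and 0.30 against the mean of the other knockdowns) and 0 lower with limma (4 at an unadjusted p under 0.05).

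Interferon-stimulated genes were called in both directions, 4 higher and 10 lower of 57. TRIM22, an antiviral ubiquitin ligase, was 7.03 and 6.99 in siWDR5 and 8.88 and 8.83 in siNTC (-1.85), and TRIM21, an intracellular antibody receptor, was 6.198 and 6.17 against 7.24 and 7.12 (-0.999). SAMHD1, a dNTP hydrolase, rose by 1.14 and IFITM1, a membrane protein that restricts viral entry, by 1.03. Against the mean of the other knockdowns these were -0.43, -0.40, 0.43 and -0.29, and none of the 4 was called there. The interferon-induced genes IFIT1 (-0.30), MX1 (0.08), ISG15 (0.08) and IFI44L (-0.14) were not called.

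ACTG2, the enteric smooth muscle actin, had the lowest log2 difference from siNTC of all genes. It was 6.26 and 6.36 in siWDR5 and 9.25 and 9.09 in siNTC, a difference of -2.86 (SE 0.12, adjusted p = 8.1e-08). It differed by -2.36 against siEED, -0.09 against siRNF2, -1.51 against siEED+RNF2 and 0.53 against siSETD2, so that low levels were shared with siRNF2 and siSETD2 and not with siEED or siEED+RNF2. ACTG2 was the only called gene of 19 smooth muscle genes. Of 26 mesoderm and heart factors, 4 were lower and 0 higher with limma (1 at an unadjusted p under 0.05). HAND1, a transcription factor of heart and extraembryonic mesoderm, was 5.62 and 5.76 against 7.31 and 7.25. It was lower than the mean of the other knockdowns, at -0.63 (SE 0.08, adjusted p = 9e-05), but not lower than siSETD2. By condition HAND1 differed by -0.78 against siEED, -1.05 against siRNF2, -1.06 against siEED+RNF2 and 0.35 against siSETD2. MEF2C (-1.01), CDX4 (-0.86) and MSX2 (-0.76) were lower than siNTC and not called against that mean. A2M, a protease inhibitor of plasma, was 6.55 and 6.4 against 8.53 and 8.69 (-2.13), and differed from the mean of the other knockdowns by 0.52. HAPLN1, a link protein of the hyaluronan matrix, was 4.87 and 5.01 against 6.77 and 6.33, and was lower than that mean, at -0.71 (SE 0.09, adjusted p = 0.00013). OR2B6, an olfactory receptor gene, differed from siNTC by -1.62 and from that mean by -0.21. None of the 27 measured HOX genes was called with limma, where 2.8% of all genes tested were called higher and 3.22% lower. At an unadjusted p under 0.05, 1 was higher and 2 lower.

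Cyclins changed in opposite directions. CCND1, which drives entry into the cell cycle with CDK4 and CDK6, was 9.93 and 9.76 in siWDR5 and 8.28 and 8.21 in siNTC, a rise of 1.596 (SE 0.07, adjusted p = 8.1e-08). It was higher than the mean of the other knockdowns by 0.82 (SE 0.05, adjusted p = 1.7e-06). CCND2 rose by 0.77 against siNTC and differed by 0.35 from that mean. CCNE2, an activator of CDK2, was 6.18 and 5.94 against 7.35 and 7.09, a difference of -1.16 (SE 0.10, adjusted p = 7.4e-06), and differed by -0.61 against siEED, -0.47 against siRNF2, -0.22 against siEED+RNF2 and -0.84 against siSETD2. CCNE1 (-0.68) and the inhibitor CDKN1B (-0.67) were also lower than siNTC. In all, 5 of 26 G1 genes were higher and 3 lower. Of 48 DNA replication genes, 1 was higher and 3 lower (2.1% and 6.25%, beside 2.8% and 3.22% of all genes tested). Against the mean of the other knockdowns 0 were called with limma (17 higher and 10 lower at an unadjusted p under 0.05, beside 3221 and 3745 of all 18417). Of 33 mitosis genes, 1 was higher and 6 lower than siNTC, led by the motor CENPE (8.24 and 8.16 against 9.35 and 9.299), KIF20B (-1.11) and the spindle protein ASPM (-0.85). Against the mean of the other knockdowns the median of the mitosis genes was 0.18 and 0 were called in either direction with limma (CENPE 0.12, KIF20B 0.15), while 20 were higher and 3 lower at an unadjusted p under 0.05. That mean combines opposite differences, since 14 of the 33 were called higher than siEED+RNF2 and 3 lower than siSETD2, with CENPE at 1.28 and -1.17 and KIF20B at 1.21 and -1.04. Of 25 p53 target genes, 5 were higher, among them TP53INP1 (1.05) and the death receptor TNFRSF10B (0.77), and 0 lower with limma (6 at an unadjusted p under 0.05). The higher genes also include SESN2 (2.12) and GDF15 (1.09), which are counted above in other lists. Against the mean of the other knockdowns 0 were called higher and 2 lower with limma (5 and 5 at an unadjusted p under 0.05). CDKN1A, the p21 inhibitor, differed by 0.34 and was not called. TP53INP1 was 0.07 and TNFRSF10B -0.11 against the mean of the other knockdowns.

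Axon guidance genes were by count the list with the most genes called higher than the mean of the other knockdowns. They gave 8 of 68 higher and 1 lower, beside 0.847% and 2.01% of all genes tested. Lists differ in length, and the shorter list of alpha-arrestins and MondoA partners gave 1 of 8 higher. Against siNTC 9 of the 68 axon guidance genes were higher and 2 lower. SEMA4A, a membrane semaphorin, was 7.502 and 7.31 in siWDR5 and 5.88 on both arrays in siNTC, and between 6.47 and 6.81 in the other knockdowns, a difference from siNTC of 1.52 (SE 0.08, adjusted p = 3e-07). SEMA5A was 6.09 and 6.38 against 4.92 and 5.12 and was higher than the mean of the other knockdowns by 0.65 (SE 0.07, adjusted p = 5.7e-05). L1CAM, a neural adhesion molecule, differed by 1.09 from siNTC and 0.63 from that mean. NRP1, a semaphorin and VEGF co-receptor, rose by 1.29 against siNTC and by 2.19 against siSETD2, with -0.12 against siEED. DPYSL5, a collapsin response mediator, rose by 1.13 against siNTC and was lower than the mean of the other knockdowns, at -0.71 (SE 0.09, adjusted p = 0.00011). UNC5D (0.903), SEMA3D (0.91), SEMA7A (0.66) and EPHA7 (0.65) were called higher against that mean, and were 0.32, 0.53, -0.01 and -0.30 against siNTC.

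Neuroendocrine genes split, with 4 of 23 higher and 4 lower than siNTC. SCG3, a granin of secretory granules, was 6.18 and 6.14 in siWDR5 and 7.96 and 7.68 in siNTC (-1.66), whereas CPE, the carboxypeptidase that trims prohormones, was 7.604 and 7.68 against 6.24 and 6.22 (1.41). CPE was also higher than the mean of the other knockdowns by 0.66 (SE 0.05, adjusted p = 4.4e-06). STMN2, a neuronal microtubule protein, rose by 1.28 and GPM6A, a neuronal membrane glycoprotein, fell, at -1.18. SCG3 was -0.07, STMN2 0.58 and GPM6A -0.51 against the mean of the other knockdowns, and none of the 3 was called. In the hedgehog pathway 3 of 19 genes were higher and 2 lower. HHIP, a decoy receptor for hedgehog ligands, was 6.99 and 6.98 against 5.998 and 5.85 (1.06), and differed by -2.37 against siEED, -1.93 against siRNF2, -1.795 against siEED+RNF2 and 0.60 against siSETD2. GLI3, a transcription factor of the pathway, rose by 0.71, and the inhibitor SUFU and co-receptor CDON were lower, at -0.66 and -0.72, which were -0.56 and -0.44 and not called after centring within chromosome groups. GLI3 was 0.30, SUFU -0.07 and CDON -0.33 against the mean of the other knockdowns. In the WNT pathway 3 of 65 genes were higher and 3 lower (4.6% each, beside 2.8% and 3.22% of all genes tested). DACT1, a regulator of Dishevelled, was 7.05 and 7.03 against 5.98 and 6.12 and was higher than the mean of the other knockdowns by 0.69 (SE 0.06, adjusted p = 1.2e-05), and the secreted WNT antagonist FRZB (-1.06) and the receptor FZD2 (-0.92) fell against siNTC and were -0.55 and -0.31 against that mean.

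Genes of the cilium were mostly called in 1 direction, 10 of 69 lower and 1 higher than siNTC, with a median of -0.09. Against the mean of the other knockdowns 5 were lower and 0 higher with limma (6 at an unadjusted p under 0.05), with a median of -0.15. MNS1, of the motile axoneme, was 7.29 and 7.69 in siWDR5 and 9.24 and 9.26 in siNTC (-1.76), and differed by -0.13 from siEED+RNF2. DNAAF11, a dynein assembly factor, was 5.27 and 5.15 against 6.54 and 6.44 and was lower than every other condition. TCTN2, of the ciliary transition zone, was 7.14 and 6.83 against 7.88 and 7.78 and was likewise lower than every other condition (-0.75 against siEED, -0.84 against siRNF2, -0.98 against siEED+RNF2 and -0.93 against siSETD2). HYLS1, of the centriole, was lower than siNTC, at -0.87, and differed from the mean of the other knockdowns by 0.04. IFT46 (-0.69) and CLUAP1 (-0.62), of intraflagellar transport, were called lower against that mean and not against siNTC (-0.49 and -0.06).

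The BEX, TCEAL, ARMCX and GPRASP genes, a family clustered on chromosome X, gave 5 of 20 lower than siNTC and 0 higher with limma (1 at an unadjusted p under 0.05), and again 5 lower and 0 higher against the mean of the other knockdowns (0 at an unadjusted p under 0.05). Their medians were -0.33 and -0.41, beside -0.03 and 0.00 over all genes. BEX1, a brain-expressed adaptor, was 8.05 and 8.06 in siWDR5, 9.14 and 9.01 in siNTC and between 9.53 and 9.89 in the other knockdowns. BEX5 was 6.01 and 5.603 against 7.01 and 6.58, and TCEAL5, related to the elongation factor TFIIS, was 4.93 and 5.06 against 5.97 and 6.003. BEX2 (0.00), BEX3 (0.25) and BEX4 (0.12) were not called. Members of this family share sequence, and probes may not separate them fully.

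Ribosomal protein genes were 4 higher and 2 lower than siNTC of 64, and 6 lower and 0 higher than the mean of the other knockdowns with limma (11 higher at an unadjusted p under 0.05), with a median there of -0.18. RPL32, of the large subunit, was 8.21 and 8.17 in siWDR5 against 9.06 and 9.05 in siNTC and at least 8.82 elsewhere. RPL36 was 10.04 and 9.901 against 10.76 and 10.82 and at least 10.56 elsewhere. RPL29 (-0.75), RPL7L1 (-0.77), RPS24 (-0.63) and RPS7 (-0.63) were the other 4 lower against that mean. Both RPL32 and RPL36 lost the call against at least 1 other condition when each array was centred on its median over the genes. Ribosomal protein genes have many processed pseudogenes, whose transcripts these probes may also read. Of 71 oxidative phosphorylation genes, 6 were higher and 2 lower than siNTC, with COX6C at 1.27 and SDHD, which is on chromosome 11, at -1.16. Against the mean of the other knockdowns 0 were called with limma (33 higher and 6 lower at an unadjusted p under 0.05), with COX6C at 0.20 and SDHD at -0.14.

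**Figure D4:**
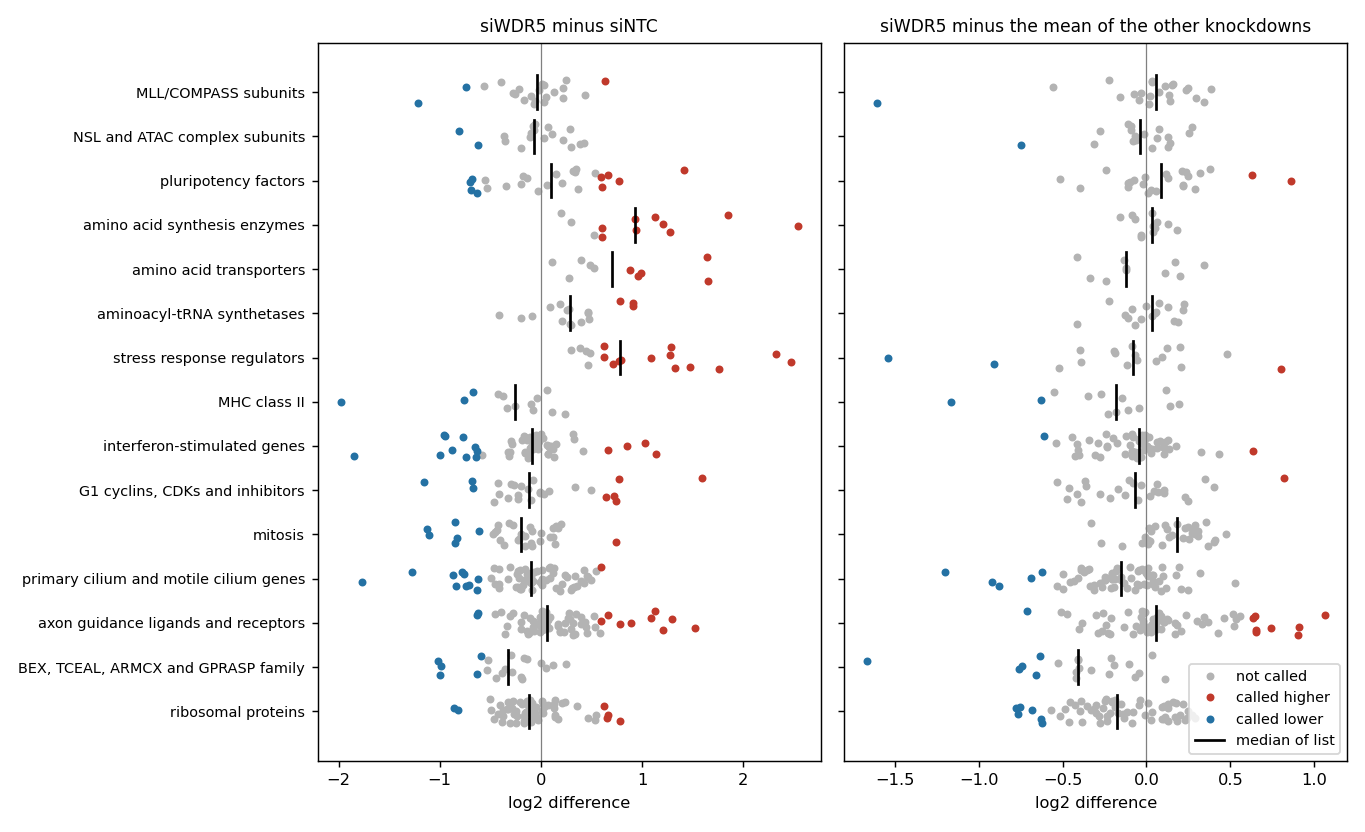
Log2 difference of each measured gene of 15 lists for siWDR5 minus siNTC (left) and siWDR5 minus the mean of the other knockdowns (right), with called genes in color and a bar at the median of a list. The medians of the amino acid synthesis genes are 0.93 on the left and 0.03 on the right, those of the stress regulators 0.78 and -0.08, and that of the BEX family lies below 0 in both panels. For the amino acid synthesis genes and stress regulators the right panel combines opposite differences. Against siEED, siRNF2 and siEED+RNF2 the amino acid synthesis medians were -0.16, -0.38 and -0.25, and against siSETD2 1.09. Those of the stress regulators were -0.27, -0.45 and -0.42, and 1.06.

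The direction of zinc finger genes differed between comparisons. Of 480 genes with a ZNF symbol, 49 were lower and 5 higher than siNTC, with a median of -0.12, and 15 were lower and 3 higher than the mean of the other knockdowns, with a median of -0.03. Against siEED+RNF2 the direction was opposite, with 52 higher and 12 lower and a median of 0.06, while siEED gave 0 and 18 and siRNF2 4 and 28. ZNF729 was 5.62 and 5.76 in siWDR5 and 7.603 and 8.14 in siNTC (-2.18), and differed by 0.07 against siEED, 0.29 against siRNF2, 0.24 against siEED+RNF2 and 0.15 against siSETD2. After centring within chromosome groups 41 of the 480 were lower and 6 higher. Small nucleolar and Cajal body RNA genes gave 23 lower and 11 higher of 192 against siNTC, and 9 lower and 3 higher against the mean of the other knockdowns. Of 57 histone genes 6 were higher and 3 lower than siNTC, with H2AC4 at 1.76 and -0.22 against the mean of the other knockdowns. Cholesterol synthesis and uptake gave 1 higher and 3 lower of 18, with the sterol enzymes SC5D (-0.96), MSMO1 (-0.77) and HMGCS1 (-0.61) lower than siNTC and the regulator SREBF1 (0.77) higher. HMGCS1 was higher than the mean of the other knockdowns by 0.86 (SE 0.05, adjusted p = 9.5e-07). By condition it was called higher than siRNF2 (1.82) and siEED+RNF2 (0.97) and not called against siEED (0.57) or siSETD2 (0.09). LAMA1, a basement membrane laminin chain, rose by 1.49 (SE 0.07, adjusted p = 1.2e-07) and differed by 0.37 from that mean. Clustered protocadherins gave 1 higher (PCDHA11, 0.59) and 1 lower (PCDHB3, -1.16) of 29 (3.4% each, beside 2.8% and 3.22% of all genes tested). PCDHA11 was 0.51 and PCDHB3 0.25 against the mean of the other knockdowns. Of 15 neuroectoderm genes, STMN2 was higher and MAP2 lower, at -0.99, or 0.06 against that mean. Of 12 trophoblast genes TFAP2C was higher and TFAP2A lower, at -0.64, and of 14 endoderm genes CXCR4 was lower, at -0.62. Against that mean they were -0.11, -0.17 and 0.12, and all 3 calls ended after centring within chromosome groups, at 0.44, -0.47 and -0.40. The median differences from siNTC over their chromosomes were 0.003 for TFAP2C, -0.009 for TFAP2A and -0.08 for CXCR4. The lost calls therefore do not show that these differences were regional.

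The 46 genes that set siWDR5 apart differed in the same direction from siNTC and from each of the 4 other knockdowns. CALB1, the calcium-binding protein calbindin, was 10.67 and 10.82 in siWDR5 and at most 9.69 on every other array. Its difference from siNTC was 1.37 (SE 0.07, adjusted p = 2.8e-07) and it differed by 2.304 against siEED, 1.903 against siRNF2, 2.26 against siEED+RNF2 and 1.07 against siSETD2. ST8SIA2, a polysialyltransferase of neural cell adhesion molecules, was 6.84 and 6.59 in siWDR5 and 5.57 and 5.69 in siNTC. DUSP10, a phosphatase of JNK and p38, was 7.77 and 7.94 against 6.597 and 6.58. The cyclic nucleotide phosphodiesterases among these genes were PDE10A (6.35 and 6.17 against 5.18 and 4.85) and PDE5A (9.35 and 9.25 against 8.69 and 8.59). EPHA3, an ephrin receptor, was 7.71 and 7.62 against 6.93 and 7.08, and NEFH, the heavy neurofilament subunit, was 8.603 and 8.55 against 7.83 and 7.76. NSMAF (0.95), SERPINA11 (0.80) and PTPRB (0.69) rose as well, PTPRB being 0.50 and not called against siNTC after centring within chromosome groups and 0.56 without siWDR5 replicate 1.

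Among the genes that were lower in every comparison, PDK2, a kinase that inhibits pyruvate dehydrogenase, was 5.55 and 5.45 in siWDR5, 6.74 and 6.71 in siNTC and between 6.60 and 6.93 in the other knockdowns, so that 5 conditions lay close together and siWDR5 apart. PRTG, an immunoglobulin superfamily protein of the early embryo, was 7.01 and 7.15 against 8.03 and 7.99, and differed by -1.82 against siEED, -1.55 against siRNF2, -1.34 against siEED+RNF2 and -1.03 against siSETD2. GATM, the first enzyme of creatine synthesis, was 5.98 and 6.32 against 6.86 and 6.98, but lies on chromosome 15 and its difference from siNTC was -0.57 and not called after centring within chromosome groups. ZNF641 (-0.83), TBC1D19 (-0.79) and KLHDC8B (-0.84) were lower as well. With either siWDR5 array left out, or under quantile normalization, centring on the genes, centring on all transcript clusters or centring within chromosome groups, 6 of the 15 higher genes (CALB1, DUSP10, EPHA3, NEFH, PDE5A and ST8SIA2) and 12 of the 31 lower genes kept their calls against every condition in all 6 settings. Those 12 were WDR5, BEX1, DNAAF11, KLHDC8B, PDK2, PRTG, RBM11, TBC1D19, TCTN2, TMEM144, ZNF641 and 1 small nucleolar RNA gene.

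**Figure D5:**
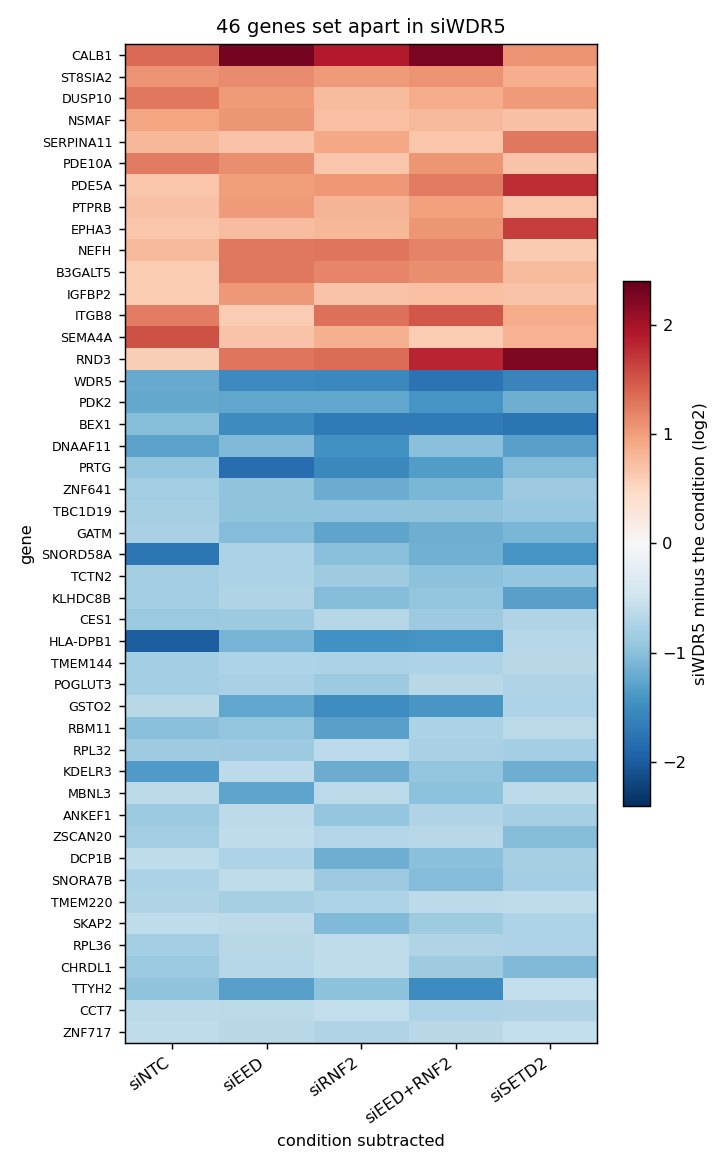
Log2 difference of siWDR5 from each of the 5 other conditions for the 46 genes that passed in the same direction in all 5 comparisons. Rows are ordered by direction and by the smallest of the 5 differences, with CALB1 and WDR5 at the head of each direction.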

How the data were processed

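RNA of NCCIT cells was hybridized to 12 microarrays, 2 for each of 6 siRNA conditions. The deposited values are log2 intensities per transcript cluster, which the authors obtained by GCRMA normalization in Partek, per the submitters' processing notes. No version of either is given, and scanner files were not used here. Of 33297 clusters, 12083 name no gene and 1754 name several, and these were left out. The brightest of the clusters stood for a gene with several, which left 18417 genes. limma 3.58.1 in R 4.3.3 fitted all 12 arrays with 1 mean per condition, so the spread was estimated over the 6 conditions. A call needed a fold of at least 1.5 and an adjusted p (Benjamini-Hochberg) under 0.05. The genes described and the gene lists were chosen with earlier results of these data known. Named genes were WDR5, TXNIP, ACTG2, HLA-DPB1 and CCNE2, the 10 highest and 10 lowest called differences from siNTC, up to 4 called genes per list, taken by size of change, and the 10 in each direction with the largest smallest difference among genes apart from every condition. Noncoding small RNA, LOC and open reading frame symbols were counted and not named. Any other gene was named as a member of a list, or after its values were seen. The fit was tested on simulated data. Alternatives were quantile normalization, other centrings, other filters, leaving out each array and a replicate block. Figures were drawn with matplotlib 3.10.9. The comparisons with siEED, siRNF2, siEED+RNF2 and siSETD2 share the siWDR5 arrays.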

Additional observations from a re-analysis of the deposited data

How the results depend on the processing

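With 2 arrays per condition, leaving out 1 leaves a lone array that is assumed to vary like the other conditions. Leaving out each array gave 510 to 555 genes higher and 574 to 692 lower than siNTC, 151 to 180 higher and 352 to 397 lower than the mean of the other knockdowns, and 13 to 20 higher and 28 to 38 lower than every condition. The deviations of siWDR5 and siNTC arrays with the same replicate number correlated at -0.0287. For siWDR5 with siEED, siRNF2, siEED+RNF2 and siSETD2 the correlations were -0.107, -0.103, -0.0787 and -0.0576. Between the other conditions they ran from -0.00568 to 0.161, so whether the numbers pair any arrays was not settled. The replicate block gave 516 and 593, 156 and 370, and 15 and 31. Under quantile normalization 20 genes were lower than every condition. After subtraction of the median gene value of an array, 22 were higher and 16 lower than every condition, and 260 higher and 239 lower than the mean of the other knockdowns. That median was 6.84 and 6.83 on the siWDR5 arrays and 6.83 to 6.97 on those of the other knockdowns. The median over genes of the difference from their mean was only 0.004. What causes this gap was not tested. Centring over all transcript clusters, chosen after seeing the data, gave 613 higher and 483 lower than siNTC. Without a fold threshold the counts were 2802 and 3432 against siNTC, 2335 and 2913 against the mean of the other knockdowns, and 248 and 408 against every condition, and at 2-fold they were 91 and 82, 19 and 39, and 1 and 4. When all transcript clusters were tested there were 952 and 1094 against siNTC, 372 higher than the mean of the other knockdowns and 27 higher than every condition. The differences of the 130 named genes from siNTC were recomputed under 13 alternatives and none changed direction (1 gene was not tested without the dimmest genes), and centring within chromosome groups ended the call of 14. Their directions against the other knockdowns were not recomputed. The values carry no background signal or detection call, so a dim gene's difference is limited by probe brightness that was not measured here.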
